A study of Mus musculus with 7 samples.

Results

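Genes of the interferon receptor and JAK-STAT pathway were compared in lin- bone marrow (BM) cells between mice with and without HRP-2. They are the receptor chains Ifnar1, Ifnar2, Ifngr1 and Ifngr2, the Janus kinases Jak1, Jak2 and Tyk2, the transcription factor Stat2 and the feedback inhibitor Socs1. The genes were chosen by name for their place in the pathway, and they are 9 of the 25033 gene symbols counted. All 9 had enough reads to be tested, among 11265 genes that were.

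HRP-2 is a chromatin reader of the HDGF family, and its gene is listed as Hdgfl2 in the count files. RNA-seq was done on 3 HRP-2 wild type (WT, Hrp2+/+) and 4 HRP-2 knockout (KO, Hrp2-/-) mice, 1 library per mouse, to ask how the transcriptome of these cells differs without HRP-2. All mice were C57BL/6N-Hdgfrp2<tm1b(KOMP)Wtsi>/Tcp and aged 6 to 8 weeks. The knockout is systemic, so every cell of a KO mouse lacks the gene, and the labels give no treatment. Lin- BM cells are what is left of femur and tibia marrow once red cells have been lysed and cells with markers of mature lineages have been removed, a mixture of stem, progenitor and remaining immature cells. The sex of the mice is not in the labels.

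Interferons are cytokines that bind paired receptor chains. Type I interferons (the alpha and beta interferons) bind IFNAR1 and IFNAR2, which carry TYK2 and JAK1. Interferon gamma binds IFNGR1 and IFNGR2, which carry JAK1 and JAK2. The kinases phosphorylate STAT proteins: type I interferons activate the complex ISGF3, which holds STAT2 and IRF9 and binds the interferon-stimulated response element (ISRE), whereas interferon gamma acts through the gamma-activated site (GAS). SOCS1 is itself induced by interferon and inhibits the kinases. In the marrow, the same kinases serve the receptors of erythropoietin, thrombopoietin and many interleukins, and interferon can drive quiescent stem cells into division.

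Some of the 9 genes carry these elements in their own promoters. In the RefSeq promoters of GRCm38.p6, which run from 250 bases before to 50 bases after the start of a gene, the ISRE core, GAAA followed after any 2 bases by GAAA, was searched on both strands and overlapping matches were counted. It was found in 2 of the 9 genes, Stat2 and Socs1, in 11 of the 22 ISGF3 target genes and 10 of the 19 interferon gamma target genes with a promoter sequence, and in 3.99% of all 27025 genes. The GAS core, TTC followed after any 3 bases by GAA, which reads the same on both strands, was found in 2 of the 9 genes, Ifnar1 and Ifnar2, in 5 of the 22 ISGF3 and 10 of the 19 interferon gamma target genes, and in 9.55% of all genes. The windows are shown to compare the genes of the pathway with its target genes Isg15, Ifit1 and Irf1, with the matched bases in capitals and 15 bases to each side. The first 4 are ISRE matches, read along the strand of the gene, and in Stat2 and Ifit1 the core lies on the other strand.
Stat2: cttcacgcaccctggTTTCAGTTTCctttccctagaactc
Socs1: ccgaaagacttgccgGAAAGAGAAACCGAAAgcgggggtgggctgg
Isg15: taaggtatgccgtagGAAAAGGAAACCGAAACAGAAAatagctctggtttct
Ifit1: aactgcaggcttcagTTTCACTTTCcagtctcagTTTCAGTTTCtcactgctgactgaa
The next 3 are GAS matches.
Ifnar1: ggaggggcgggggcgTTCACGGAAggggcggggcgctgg
Ifnar2: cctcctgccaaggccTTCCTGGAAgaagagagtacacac
Irf1: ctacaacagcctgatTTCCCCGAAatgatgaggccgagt
Stat2 held 1 match, from 222 to 213 bases before its start (window chr10:128270261-128270300, plus strand). Socs1 held 2 overlapping matches from 83 to 68 bases before its start (chr16:10785589-10785634, minus strand), where Isg15 held 3 (chr4:156200860-156200911, minus strand) and Ifit1 held 2 that did not overlap (chr19:34640770-34640828, plus strand). The match of Ifnar1 lay across its RefSeq start (chr16:91485195-91485233, plus strand), that of Ifnar2 began 214 bases before its start (chr16:91372554-91372592, plus strand), and that of Irf1 began 90 bases before its start (chr11:53769909-53769947, plus strand). Distances are from the RefSeq starts, which for Ifnar1 and Stat2 differ from the starts of the GENCODE genes given with the values. These matches describe letters only.

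The WT libraries held 3525665 to 4490287 reads on genes and the KO libraries 4355974 to 5605158. The 3′ end kit yields 1 fragment per transcript, so levels are given as CPM, which sets each gene's reads against its library's total with TMM factors, and are not divided by gene length. Hdgfl2 checks the labels: it stood at 50.02, 43.7 and 44.6 CPM in WT replicates 1 to 3 and at 2.53, 0.623, 1.49 and 0.498 CPM in KO replicates 1 to 4. The ribosomal RNA precursor Rn45s took 4.94% to 20.6% of the reads on genes, most in WT replicate 2, KO replicate 4 and KO replicate 3. KO replicate 3 stood apart in another way: it had 104 CPM of the Y-linked gene Ddx3y and 0.561 CPM of Xist, whereas the 6 other libraries had at most 0.777 CPM of Ddx3y and 229 to 303 CPM of Xist. Of 9 lists of cell type markers, the summed level of 8 overlapped between genotypes. The sum of the macrophage and monocyte list was led by Ly6c2, and single genes of that list were apart. Of 14 tested, 6 did not overlap, all lower in KO cells, against 2.79% of all genes tested with KO lower. They were C1qa, C1qb, C1qc, Vcam1, Cd5l and Mertk. Of the 8 others 5 had higher means in KO, among them Cd163 (log2 fold change 0.54, SE 0.29) and Ly6c2 (0.34, SE 0.15), and Adgre1, which encodes the macrophage marker F4/80, stood at −0.0098 (SE 0.31). C1qc, singled out after its values were seen, stood at 31.6 to 36.6 CPM in WT and 16.1 to 18.7 CPM in KO (log2 fold change −1.001, adjusted p = 0.322 by edgeR and 0.0117 by DESeq2). The list of eosinophil, basophil and mast cell markers, all 15 of which had reads, did not overlap, at 2951 to 3105 CPM in WT and 2136 to 2929 CPM in KO. The 16 neutrophil markers summed to 16773 to 19043 CPM in WT and 18821 to 34730 CPM in KO, highest in KO replicate 3. Markers of stem and progenitor cells, such as Kit and Cd34, were detected in every case (15 of 15) and overlapped, at 2099 to 2661 CPM in WT and 1980 to 2378 CPM in KO, and 4 hemoglobin genes were at 0 in every library.

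No difference between genotypes was called for the 9 signalling genes. None of the 9 passed the threshold of an adjusted p under 0.25 in edgeR's quasi-likelihood test, where 2 of 11265 genes (0.0178%) did. The study used this level with DESeq2, not edgeR. Here DESeq2 called none of the 9 either, against 19 of all genes (0.169%). The study reported more genes at that level than either fit called here. At an unadjusted p under 0.05 stood 1 of the 9, Ifnar1, against 3.63% of all genes. For 1 of the 9, again Ifnar1, the CPM ranges of the genotypes were apart, against 5.16% of all genes in either direction, 2.79% with KO lower and 2.37% with KO higher. On the log2 scale (KO minus WT) 3 of the 9 were higher and 6 lower, with a median of −0.06, and over all genes tested 5607 were higher and 5658 lower, with a median of −0.0014. The 95% intervals of all 9 lay within a change of 1 on the log2 scale in either direction, that is, a doubling or a halving, as they did for 74.5% of all genes. In bulk RNA, fewer cells of a type and less RNA per cell cannot be told apart.

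**Figure D1:**
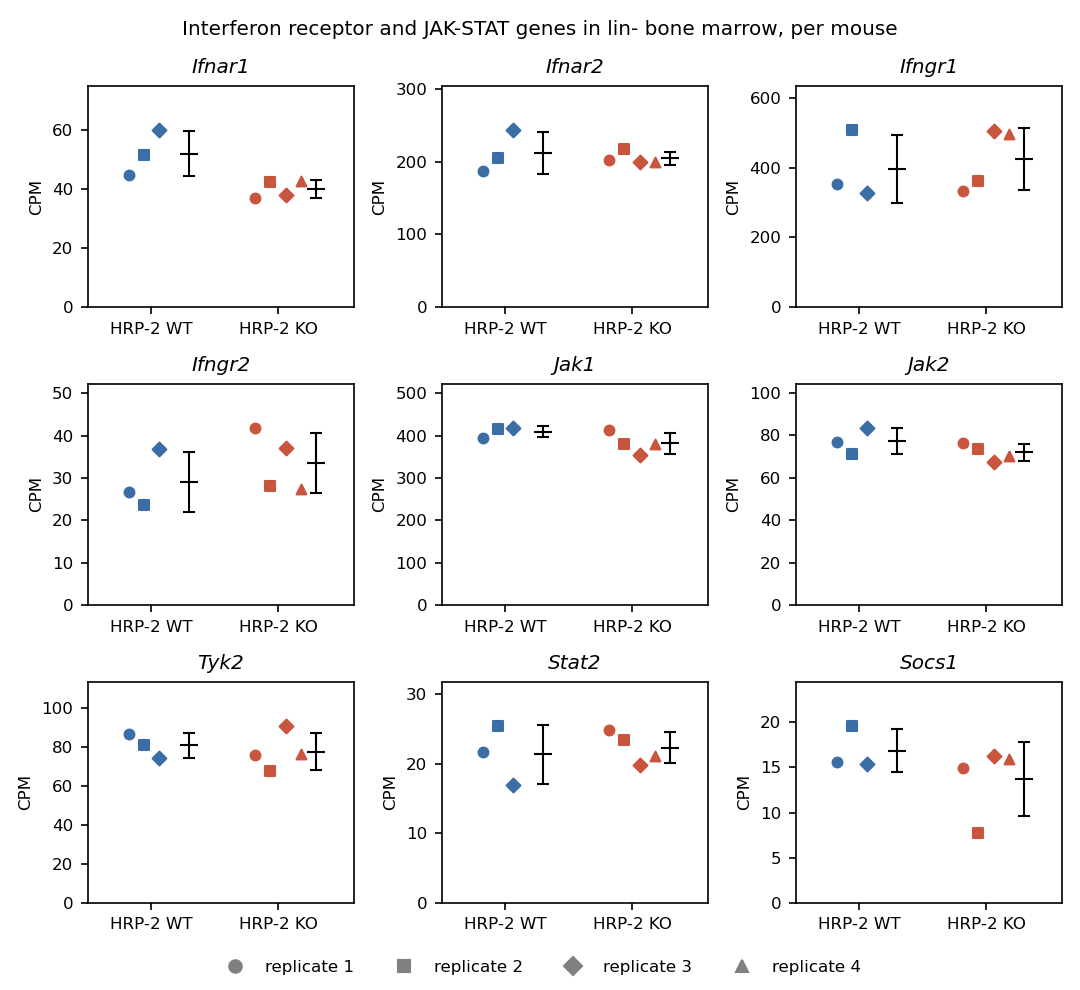
Level of each of the 9 genes in each mouse, in CPM from 0 on the y axis, with HRP-2 WT (3 mice) and KO (4 mice) on the x axis; black bars are the mean ± SD and marker shapes give the replicate. Only in the panel of Ifnar1 do all 4 KO points, at 36.9 to 42.9 CPM, lie below all 3 WT points, at 44.8 to 60.05 CPM.

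IFNAR1 is the chain of the type I receptor that binds TYK2. Ifnar1 lies on chromosome 16 of GRCm38 from 91485238 to 91507441. It stood at 44.8, 51.5 and 60.05 CPM in WT replicates 1 to 3 and at 36.9, 42.6, 38.1 and 42.9 CPM in KO replicates 1 to 4. Every KO mouse lay below every WT mouse, and the gap between the nearest mice, 42.9 and 44.8 CPM, was smaller than the range within either genotype. The means were 52.1 ± 7.66 CPM (SD, n = 3) and 40.1 ± 3.05 CPM (SD, n = 4), a difference of −23.0% with a 95% interval from −40.1% to −1.01%. The log2 fold change was −0.38 (SE 0.17), with an unadjusted p of 0.0423 in edgeR that put Ifnar1 at place 340 of all genes, and the p adjusted over all genes was 0.999. Without WT replicate 3 the log2 fold change was −0.26 and the unadjusted edgeR p was 0.20, and without KO replicate 3, the library with Y-linked reads, they were −0.35 and 0.0767. The summed markers of eosinophils, basophils and mast cells were likewise lower in every KO mouse. The nearest mice were close, at 2929 CPM in KO replicate 3 and 2951 CPM in WT replicate 3. Among 14 macrophage and monocyte markers tested, 6 were also lower in every KO mouse, and 5 had higher means in KO. The part of these cells in the level of Ifnar1 was not tested.

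IFNAR2 is the other chain, which binds JAK1 and carries much of the affinity for the ligand. Ifnar2 lies on the same strand of chromosome 16, from 91372783 to 91405589, where it overlaps Gm21970 on its own strand. It stood at 187, 205 and 243 CPM in WT and at 203, 217, 199 and 199 CPM in KO, and the KO mice all lay inside the WT range. The means were 212 ± 28.7 CPM (SD, n = 3) and 205 ± 8.74 CPM (SD, n = 4). The log2 fold change was −0.05 (SE 0.13), with a 95% interval from −0.33 to 0.23.

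IFNGR1 is the ligand-binding chain of the interferon gamma receptor, and its gene lies on chromosome 10 from 19591949 to 19610229. Ifngr1 stood at 353, 507 and 327 CPM in WT and at 334, 363, 505 and 496 CPM in KO. One WT and a pair of KO mice were high and the rest low, so the genotypes overlapped almost wholly. The 3 high libraries were also the 3 with the largest share of reads on Rn45s, and with that share as a covariate the log2 fold change was 0.23 in place of 0.10 (SE 0.18, 95% interval −0.28 to 0.48). The part of RNA quality in these levels was not tested.

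IFNGR2, the chain that brings JAK2 to the receptor, is encoded on chromosome 16 from 91547072 to 91565623. Ifngr2 stood at 26.8, 23.5 and 36.9 CPM in WT and at 41.8, 28.1, 37.0 and 27.4 CPM in KO. High and low mice occurred in both genotypes. The log2 fold change was 0.21 (SE 0.22), with a 95% interval from −0.25 to 0.67, which leaves room for a level up to 59.5% higher in KO cells.

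Of the 9 genes, Jak1 and Jak2 varied least between mice. JAK1 serves both interferon receptors, and its gene lies on chromosome 4 from 101152367 to 101265282, where it overlaps Raver2 on the opposite strand. Jak1 stood at 394, 416 and 418 CPM in WT and at 414, 380, 355 and 380 CPM in KO. KO replicate 1 lay with the WT mice and the 3 other KO mice below them. The means were 409 ± 13.3 CPM (SD, n = 3) and 382 ± 24.2 CPM (SD, n = 4), with a log2 fold change of −0.10 (SE 0.12) and a 95% interval from −0.36 to 0.16.

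JAK2 serves the interferon gamma receptor and the receptors of erythropoietin and thrombopoietin, and its gene lies on chromosome 19 from 29251828 to 29313080. Jak2 stood at 77.0, 71.1 and 83.4 CPM in WT and at 76.6, 73.6, 67.6 and 70.3 CPM in KO. The ranges overlapped, and the log2 fold change was −0.10 (SE 0.14, 95% interval −0.40 to 0.20).

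TYK2 serves the type I receptor, and its gene lies on chromosome 9 from 21104068 to 21131243, where it overlaps the antisense gene 1700084C06Rik, so that reads of both may be counted together if strand was ignored. Tyk2 stood at 86.7, 80.9 and 74.1 CPM in WT and at 75.8, 67.3, 90.6 and 76.0 CPM in KO. KO mice were both the lowest and the highest, and the log2 fold change was −0.06 (SE 0.15, 95% interval −0.37 to 0.26).

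STAT2 is the STAT that only type I and type III interferons make much use of. Its gene lies on chromosome 10 from 128270559 to 128292849 and carries the ISRE match shown above. Stat2 stood at 21.7, 25.5 and 17.0 CPM in WT and at 24.9, 23.5, 19.8 and 21.2 CPM in KO, all of the KO mice inside the WT range. The log2 fold change was 0.06 (SE 0.22, 95% interval −0.40 to 0.53).

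Socs1 lies on chromosome 16 from 10782240 to 10785536, far from the receptor genes, and holds the paired ISRE matches. It stood at 15.6, 19.6 and 15.4 CPM in WT and at 14.96, 7.69, 16.3 and 15.9 CPM in KO. KO replicate 2 was low, and the 3 other KO mice lay near the lower WT mice. The log2 fold change was −0.30 (SE 0.28, 95% interval −0.89 to 0.30), the widest interval of the 9, and without KO replicate 2 it was −0.10.

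**Figure D2:**
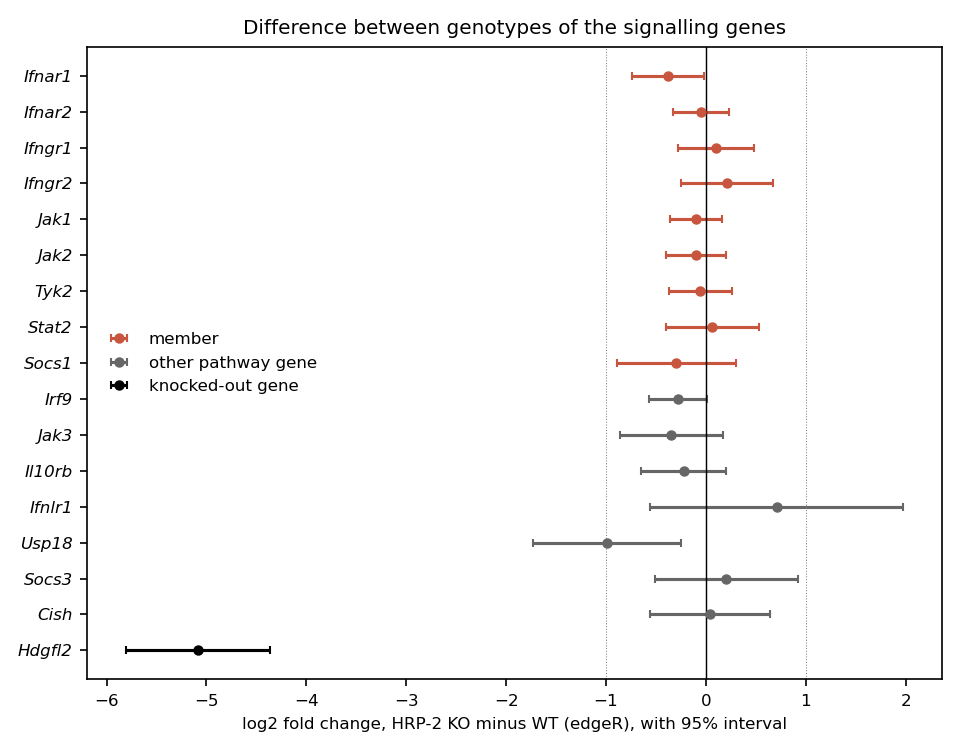
Difference between genotypes (log2 fold change, KO minus WT, from edgeR) with its 95% interval on the x axis for the 9 genes, 7 other genes of the pathway and the knocked-out gene Hdgfl2; dotted lines mark a change of 1. All 9 intervals stay between the dotted lines, of the 9 only that of Ifnar1 lies wholly below 0, and Hdgfl2 stands at −5.09.

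The genes kept nearly the same order of level in both genotypes. In WT cells Jak1 (409 CPM) and Ifngr1 (396 CPM) came first, followed by Ifnar2 (212 CPM), Tyk2 (80.6 CPM), Jak2 (77.2 CPM), Ifnar1 (52.1 CPM), Ifngr2 (29.1 CPM), Stat2 (21.4 CPM) and Socs1 (16.9 CPM). Neighbours whose ranges over mice overlapped in WT were Jak1 and Ifngr1, Tyk2 and Jak2, Ifngr2 and Stat2, and Stat2 and Socs1. Within single libraries Stat2 stood above Socs1 in 7 of 7 mice. In KO cells Ifngr1 stood above Jak1, within their spread, and the rest of the order was the same, with overlap between Ifngr1 and Jak1, Tyk2 and Jak2, and Ifnar1 and Ifngr2. Within each receptor, the chain that binds its ligand most firmly was the more abundant: Ifnar2 over Ifnar1 and Ifngr1 over Ifngr2 in 7 of 7 mice. The SD of log2 CPM within genotypes was 0.076 for Jak1, a spread smaller than that of all but 1.17% of the genes tested, and 0.093 for Jak2. It was 0.13 for Ifnar2, 0.15 for Tyk2, 0.16 for Ifnar1 and 0.21 for Stat2. The more variable genes were Ifngr2 (0.30), Ifngr1 (0.32) and Socs1 (0.39), against a median of 0.28 over all genes.

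Ratios of partner genes within a library do not depend on the scaling between libraries. The reads of Ifnar1 per read of Ifnar2 numbered 0.239, 0.251 and 0.247 in WT and 0.182, 0.196, 0.191 and 0.216 in KO. All 4 KO ratios lay below the 3 WT ratios. The means were 0.246 ± 0.00588 (SD, n = 3) and 0.196 ± 0.0141 (SD, n = 4), a log2 difference of −0.33 (two-sided exact permutation test, p = 0.0286, which is the lowest p that 35 splits of 7 mice can give). Adjusted over the 6 ratios tested, the exact permutation p was 0.171. The ratio of Jak1 to Jak2 stood at 5.33 ± 0.454 in WT and 5.30 ± 0.122 in KO. For it and for Ifngr1 to Ifngr2, Tyk2 to Jak1 and Socs1 to Jak2, the exact permutation p was between 0.629 and 0.971, and each ratio overlapped between genotypes.

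**Figure D3:**
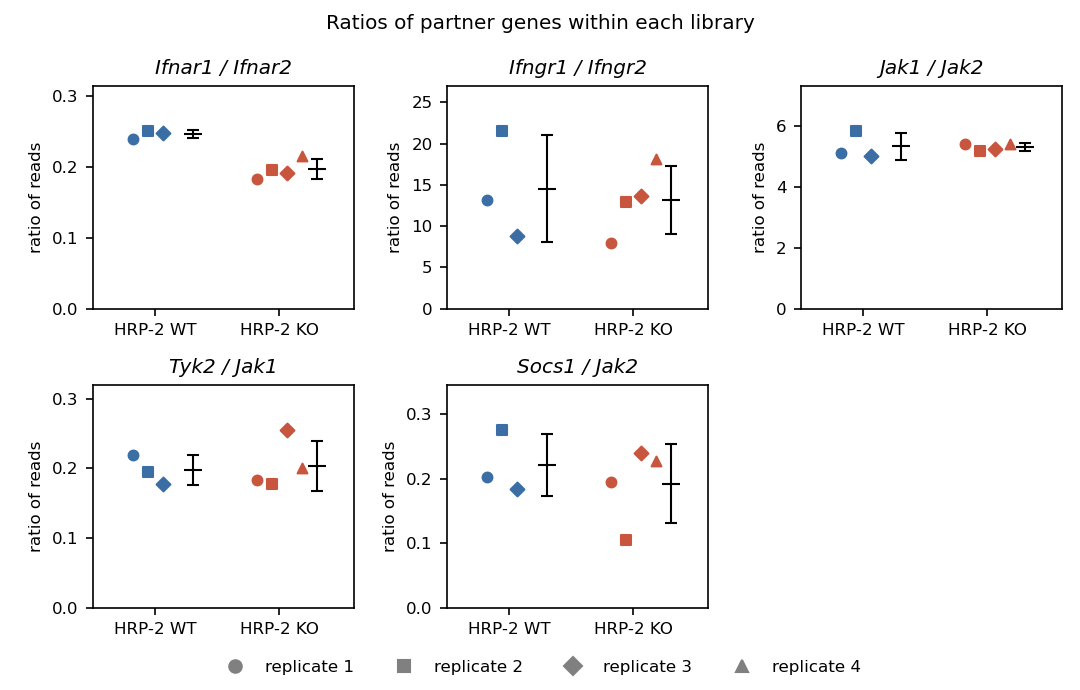
Ratio of the reads of partner genes in each library, from 0 on the y axis, for HRP-2 WT (3 mice) and KO (4 mice); black bars are the mean ± SD and marker shapes give the replicate. Ifnar1 to Ifnar2 is the panel without overlap, with 0.182 to 0.216 in KO and 0.239 to 0.251 in WT.

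Ifnar2, Il10rb, Ifnar1 and Ifngr2 lie side by side on chromosome 16, all on the plus strand, within 193 kb. IL10RB is the shared second chain of the receptors of interleukin 10 and of type III interferons. In this order, the log2 fold changes of the cluster were −0.05, −0.22, −0.38 and 0.21, so the first 3 were below 0 and Ifngr2 above. Il10rb stood at 45.6, 78.7 and 53.9 CPM in WT and at 48.6, 44.9, 65.6 and 43.6 CPM in KO, with overlap. Of 12 listed genes around the cluster that were tested, Il10rb included and C2cd2 the farthest at 6482 kb from the start of Ifnar2, 5 were higher and 7 lower, with a median of −0.02, none was called, and 3 did not overlap between genotypes, against 5.16% of all genes. Among these, Itsn1, which encodes an endocytic scaffold, had a log2 fold change of 0.56 (SE 0.18) and Cryzl1 one of −0.43 (SE 0.21), both with an adjusted p of 0.999 from edgeR. Hdgfl2 itself lies on chromosome 17, which holds none of the 9 genes.

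**Figure D4:**
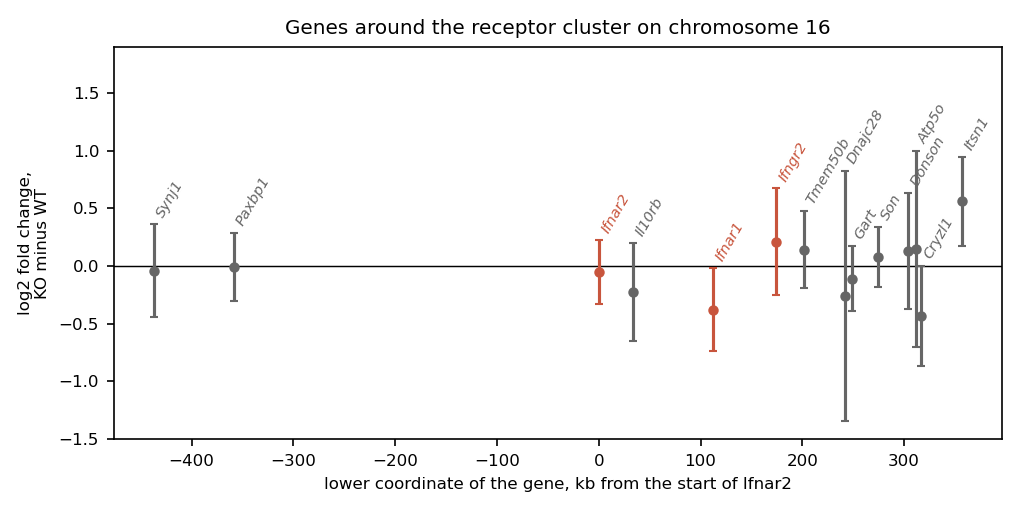
Log2 fold change (KO minus WT, edgeR, y axis) with its 95% interval for the tested genes within 600 kb of the receptor cluster on chromosome 16, at the distance of the gene's lower coordinate from the start of Ifnar2 in kb (x axis); receptor genes of the 9 are red. Il10rb (−0.22) and Ifnar1 (−0.38) lie below 0, Ifngr2 (0.21) above, and the intervals of Ifnar1 and Itsn1 do not cover 0.

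The partners of these genes were also not called. The 7 other listed JAK, STAT and IRF9 genes were tested, 1 was higher and 6 lower, and the median log2 fold change was −0.09. The 5 STAT genes among them, Stat3, Stat4, Stat5a, Stat5b and Stat6, had log2 fold changes from −0.14 (Stat5a, SE 0.16) to 0.03 (Stat6, SE 0.17), each with overlap. Irf9, which encodes the DNA-binding subunit of ISGF3, stood at 110, 118 and 94.6 CPM in WT and at 87.6, 91.2, 87.1 and 87.0 CPM in KO. It did not overlap, and its log2 fold change was −0.28 (SE 0.14, adjusted p = 0.999 by edgeR). Jak3, the kinase of receptors with the common gamma chain, stood at 14.6 to 17.1 CPM in WT and 12.05 to 13.3 CPM in KO, also without overlap (log2 fold change −0.35, adjusted p = 0.999 by edgeR).

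Of 18 other negative regulators, all were tested, 9 were higher, 9 lower and none was called, with a median of −0.0069. The 3 with the smallest p were all lower. Socs5, a relative of Socs1, stood at 9.87, 7.28 and 14.1 CPM in WT and at 1.94, 5.20, 5.42 and 2.99 CPM in KO, without overlap. Its log2 fold change was −1.41 (SE 0.42, adjusted p = 0.999 by edgeR and 0.440 by DESeq2). Usp18, an interferon-induced protein that binds IFNAR2 and blocks its signal, stood at 8.56, 16.2 and 12.5 CPM in WT and at 4.28, 5.61, 6.17 and 8.97 CPM in KO, with overlap and a log2 fold change of −0.99 (SE 0.35, adjusted p = 0.999 by edgeR). Socs4 had a log2 fold change of −0.94 (SE 0.46). Socs3 and Cish, the feedback inhibitors induced by STAT3 and STAT5, had log2 fold changes of 0.21 (SE 0.34) and 0.04 (SE 0.29). Of 31 other receptor genes that signal through Janus kinases, 24 were tested, 9 were higher, 15 lower and none was called, with a median of −0.05. Il2rb, a chain of the receptors of interleukins 2 and 15, had a log2 fold change of −0.46 (SE 0.17), Csf2ra, the GM-CSF receptor's binding chain, one of 0.43 (SE 0.20), and Il10ra one of −0.32 (SE 0.21). Ifnlr1, the specific chain of the type III receptor, was scarce, at 1.76 to 4.2 CPM in WT and 1.45 to 6.73 CPM in KO.

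Transcripts of the ligands were almost absent. Of 21 interferon genes, 17 had no read in any of the 7 libraries, and each allows up to 3 reads per library, which is 0.561 to 0.84 CPM. These floors cover counting error only, and the alpha interferon genes are near-identical copies whose shared reads may have been left out of the counts. Ifng, the interferon gamma gene of T and natural killer cells, was the gene that could be tested. It stood at 14.04, 12.04 and 7.97 CPM in WT and at 6.802, 16.8, 12.1 and 8.47 CPM in KO, with overlap and a log2 fold change of −0.04 (SE 0.34). Among the rest, the highest total was 4 reads over all libraries, for Ifnk.

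Most genes induced by interferon had lower means in KO cells, though none was called, and whether they differ from the 9 signalling genes in this was not tested. Cell type markers differed beside them in their means: of 14 macrophage and monocyte markers 9 were lower, 6 of them without overlap, and 5 higher, of 14 markers of eosinophils, basophils and mast cells 12 were lower, 5 of them without overlap, and 2 higher, and 14 of 16 neutrophil markers had higher means in KO, all overlapping. Of 13 stem and progenitor markers 10 were lower (median −0.21, 1 without overlap), of 11 erythroid markers 9 (median −0.37) and of 14 T and natural killer cell markers 9 (median −0.16, 1 without overlap), and the medians of the megakaryocyte, B cell and dendritic cell lists were 0.11, −0.09 and −0.02. Over all genes tested, 5.16% did not overlap in either direction and 2.79% with KO lower. The part of these cell types in the target genes was not tested. Of 30 listed target genes of ISGF3, 29 were tested, 3 were higher, 26 lower and none was called by edgeR, with a median log2 fold change of −0.43. At an unadjusted p under 0.05 stood 9, all lower, against 3.63% of all genes in either direction, and 5 did not overlap, all lower, against 2.79% of all genes. Ifi27 had the smallest p in edgeR, with a log2 fold change of −0.79 (SE 0.20). It stood at 98.1, 62.4 and 70.9 CPM in WT and 34.8, 51.5, 37.4 and 55.3 CPM in KO. Its adjusted p was 0.769 by edgeR and 0.252 by DESeq2. Ifi44 (−1.26, SE 0.40) and Rtp4 (−0.86, SE 0.28) followed. The mean log2(CPM + 1) of the 29 genes was 3.84 to 4.11 in WT and 3.31 to 3.75 in KO. The same mean over the 20 interferon gamma target genes described next overlapped, at 4.68 to 5.20 in WT and 4.56 to 4.97 in KO.

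Of 24 listed genes induced by interferon gamma through GAS, 20 were tested, 3 were higher, 17 lower and none was called. The median was −0.31. At an unadjusted edgeR p under 0.05 stood 4, all lower, against 3.63% of all genes in either direction. Only 1 did not overlap, with KO lower, against 5.16% of all genes in either direction and 2.79% with KO lower. The 3 with the smallest p were the GTPases Gbp4 (log2 fold change −0.78, SE 0.28) and Iigp1 (−1.22, SE 0.48) and the immunoproteasome subunit Psmb9 (−0.35, SE 0.14). Of 15 listed genes induced by STAT5 or STAT3, 14 were tested, 7 were higher, 7 lower and none was called, with a median of 0.02. Examples are Junb (0.42, SE 0.22), Pim1 (−0.22, SE 0.17) and Bcl6 (0.30, SE 0.27).

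**Figure D5:**
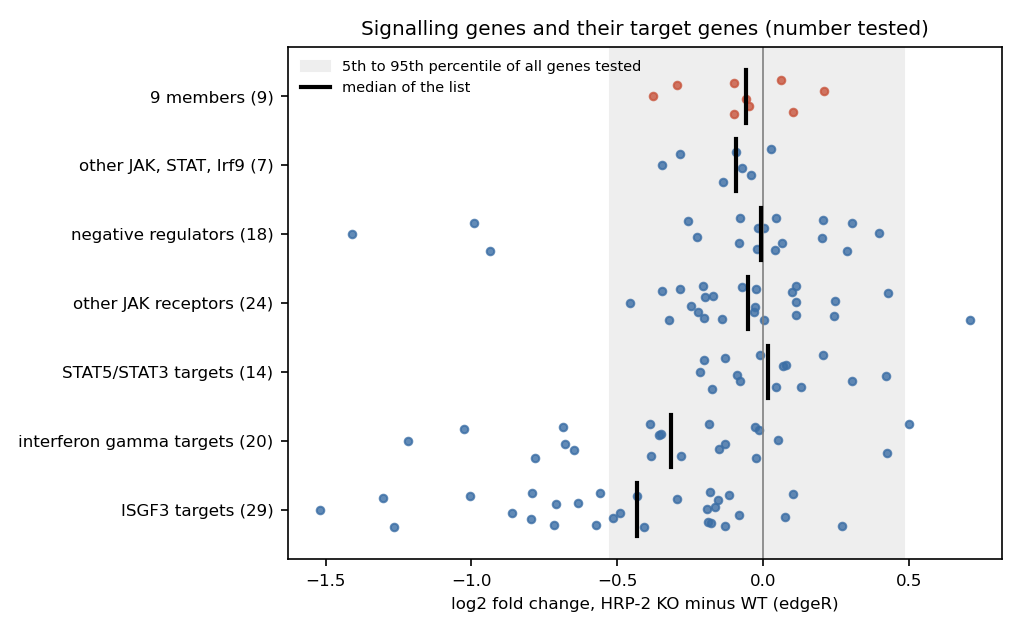
Log2 fold change (KO minus WT, edgeR, x axis) of each tested gene, 1 row per list with the number tested, with the list's median as a black bar and the range from the 5th to the 95th percentile of all genes tested (−0.53 to 0.48) in grey. The 9 genes, in red, all lie inside the grey range with a median of −0.06. The medians of the target genes of ISGF3 (−0.43) and of interferon gamma (−0.31) lie further left, also inside the grey range.

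Across the 7 mice, the level of each of the 9 genes was set against the mean level of the 29 ISGF3 target genes. Ifnar1 had Pearson's r = 0.77 (two-sided exact permutation p = 0.0393, adjusted over the 9 genes 0.354) and Spearman's rho = 0.82 (exact permutation p = 0.0341, adjusted 0.154). Without KO replicate 3 and WT replicate 2, the mice farthest from the median of the target level, r was 0.73. Both quantities were lower in KO mice. As deviations from the genotype means, r was 0.33 (permutation p = 0.454), and a relation within genotypes was not detected with 7 mice. That permutation shuffled all 7 deviations across genotypes, not inside each genotype, so its p is not exact. Ifngr2 ran the other way, with r = −0.70 (exact permutation p = 0.0901, adjusted 0.405) and rho = −0.82 (exact permutation p = 0.0341, adjusted 0.154). Its r was −0.44 without those mice. As deviations from the genotype means it was −0.76 (permutation across genotypes, p = 0.0581, likewise not exact). Pearson's r of the 7 other genes lay between −0.16 and 0.58 and Spearman's rho between −0.07 and 0.61, with adjusted exact permutation p of at least 0.50.

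As a description over the 7 mice, the gene whose log2(CPM + 1) went most closely with that of Ifnar1 was Lrrc61 (r = 0.992), that of Ifnar2 was Cpeb4 (0.966), that of Ifngr1 was Tbck (0.985) and that of Ifngr2 was Stk38 (0.989). For Jak1 it was Gnb1l (0.961), for Jak2 Mei4 (0.977), for Tyk2 Tmem115 (0.971), for Stat2 Them4 (0.985) and for Socs1 Selenbp1 (0.987). Each is the highest of 11265 genes over 7 points that share the libraries and their depth.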

How the data were processed

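RNA of lin- BM cells was sequenced with a 3′ end (QuantSeq reverse) kit. The authors aligned reads to GRCm38 and quantified genes with STAR on an Ensembl annotation, and deposited raw counts per gene symbol, without normalization. The strand setting is not given in the sources used here, so overlapping genes are uncertain. Low genes were removed with filterByExpr, libraries were scaled with TMM, and genotypes were compared with the robust quasi-likelihood test of edgeR 4.0.16 (R 4.3.3), with Benjamini-Hochberg adjustment over all genes. The test was also run on simulated data, and the outcome is not given here. SE is the log2 fold change divided by the square root of F. DESeq2 1.42.0, limma-voom 3.58.1, other scaling and filters, a replicate block and omission of each mouse were alternatives. Exact permutation tests (two-sided) used scipy 1.17.1. The result of 1 planned ratio and of 1 partner gene is not reported here. Coordinates are from GENCODE M21, in which 97.6% of symbols were found.

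The 9 genes and all lists were chosen with earlier results of these data known. Genes named beyond the 9 were Hdgfl2, a set of partners fixed by name, up to 3 genes with the smallest p per list, the gene most alike to each of the 9, neighbours, sex-linked genes and genes called. Isg15, Ifit1 and Irf1 are named for their sequences. Called genes were Hdgfl2 (log2 fold change −5.09, adjusted p = 1.38e-07 by edgeR) and Tspoap1 (1.17, adjusted p = 0.00491 by edgeR). Every pair of libraries within a genotype differed by more than sampling noise.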

Additional observations from a re-analysis of the deposited data

Results flagged for a closer look

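Of 22 values tested for a single KO mouse far from the 3 others, 2 stood apart, where chance alone gives about 1.1. The level of Socs1 in KO replicate 2 was 7.69 CPM, against 14.96 to 16.3 CPM in the other KO mice. The level of Irf9 in KO replicate 2 was 91.2 CPM, against 87.0 to 87.6 CPM in the other KO mice, a gap of about 4 CPM that was large only beside how close the others lay.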

How the results depend on the processing

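None of the 9 genes was called in the 16 alternative fits. The number of all genes called was 2, and became 19 with DESeq2, 41 without a filter on low counts, 1 with at least 10 reads in every library, 8 with the Rn45s share as a covariate and 2 to 7 when 1 mouse was left out (7 without WT replicate 1, 4 without KO replicate 1). Same-numbered mice did not vary together (correlations of their deviations −0.0249, −0.215 and −0.160, against −0.119 to 0.218 for mice with different numbers). With so few mice this cannot tell whether the numbers pair them, and the labels do not say. With the replicate block 1 gene was called, and the log2 fold changes of Ifnar1, Ifngr1 and Socs1 were −0.40, 0.02 and −0.42. Without a filter, the median of the interferon ligand list was 1.08, over genes with a few reads. When 1 mouse was left out, 1 to 2 of the 9 genes did not overlap between genotypes (2 without WT replicate 1, 2 or 3 or KO replicate 1), where 9.01% to 13.1% of all genes tested did not with the same mice, and the log2 fold change changed sign for Tyk2 (−0.14 to 0.0061), Ifnar2 (−0.13 to 0.061), Ifngr1 (−0.018 to 0.32) and Stat2 (−0.076 to 0.20). For Ifnar1 it was −0.47 to −0.26, and the unadjusted edgeR p was under 0.05 in 10 of the 16 alternatives.

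The relations to the target level also depended on the choices. With interferon gamma targets as the list, r was 0.37 for Ifnar1, −0.14 for Ifnar2, 0.030 for Ifngr1, −0.79 for Ifngr2 (exact permutation p = 0.0438) and −0.063 for Socs1. As deviations from genotype means it was 0.33 for Ifnar1, 0.16 for Ifngr1, −0.21 for Jak2 and −0.53 for Socs1, which was −0.020 without TMM factors. For Jak1, Tyk2 and Stat2 these deviations gave r of 0.16, −0.63 and 0.55, in place of 0.58, −0.16 and 0.14. Ifnar2 stood at 0.15 and Ifngr2 at −0.76. With 1 mouse left out, r was 0.71 to 0.95 for Ifnar1, 0.066 to 0.46 for Ifnar2, −0.59 to 0.29 for Ifngr1, −0.87 to −0.53 for Ifngr2, 0.27 to 0.89 for Jak1, −0.0039 to 0.69 for Jak2, −0.34 to 0.32 for Tyk2, −0.29 to 0.53 for Stat2 and −0.31 to 0.61 for Socs1. The log2 difference of Ifnar1 to Ifnar2 was −0.37 to −0.29 with 1 mouse left out, where the smallest exact permutation p is above 0.05. The cause of these changes was not tested. Depth limits the scarce genes most: Stat2 and Socs1 rest on 37 to 128 reads per library.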
